A study of Mus musculus with 39 samples.

Results

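A promoter can be accessible without being transcribed at a measurable level, and a transcript can be abundant without an accessible site at its annotated start. Here the accessibility of promoters in FANS-nuclei was set against the nuclear RNA level of the same genes. Fluorescence-activated nuclei sorting (FANS) passes nuclei that carry a fluorescent tag one by one through a flow cytometer. The members were chosen by position alone: for each gene of the batch 1 RNA-seq table, the tallest ATAC-seq peak within 1 kb of a curated RefSeq start site was taken in each of the 3 FANS peak lists, and genes on chromosomes X and Y were left out. Of the 24421 genes of the table, 23132 autosomal genes with 28282 start sites were described.

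All nuclei came from the neocortices of adult male and female mice that carry Arc-CreERT2 and CAG-Sun1/sfGFP. In this line the promoter of the activity-regulated gene Arc drives a recombinase that needs tamoxifen, and recombined cells display the nuclear membrane protein Sun1 fused to superfolder GFP. The mice received tamoxifen and then took a social interaction test, so sfGFP marks nuclei of cells that expressed Arc around that time. Every sample shares these alleles and this treatment. The 3 ATAC-seq lists (FANS replicates 1 to 3) are technical replicates of 1 source, with 50000 nuclei per library. The 4 FANS RNA-seq libraries are those of batch 1, the batch with high RNA integrity, and the INTACT lists, from nuclei of the same line captured on antibody-coated beads, were used only to set shares of FANS genes beside those in another isolation. Accessibility and RNA were measured in different nuclei. The paper counts each RNA-seq batch as 1 biological source, and nothing says that the 4 libraries came from separate animals. All spreads below may therefore be technical.

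ATAC-seq uses a transposase that cuts and tags DNA where it is not wrapped in nucleosomes or otherwise blocked. Active promoters lose a nucleosome over the start site, and promoters rich in CpG dinucleotides tend to be free of DNA methylation and open across many tissues, whereas promoters of tissue-specific genes are more often poor in CpG and opened only where they are used. RNA in the nucleus holds unspliced precursors and retained non-coding transcripts beside mature messages, so its level follows transcription more closely than the level of cytoplasmic RNA does. The height of a peak is the fold by which its summit exceeds the signal expected around it, and rank 1 is the tallest. The RNA level is the normalized count, which is read counts divided by a size factor per library. The cut-offs and the classes of RNA level below use this count, not divided by length. Where a count per kb of exon is used, it is named as such.

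The lists held 123596, 128910 and 130088 peaks, and the libraries held between 4853224 and 6066759 reads on genes. A gene without a read in a library could still have held up to 3 reads, a normalized count of 3.68 to 4.58 depending on the library, by counting error alone. Between 81.9 and 84.3% of all reads fell outside annotated features. The label of activated neuronal nuclei was compared with marker genes. All 20 excitatory neuron markers were above a mean normalized count of 50, and their summed count per library was 44571 to 46206, of which Gria2 alone gave a mean of 22390. The sums were 1513 to 1734 for 18 inhibitory neuron markers, 6904 to 7634 for 16 astrocyte markers, of which Slc1a2 alone gave a mean of 6377, 3705 to 4464 for 16 markers of the oligodendrocyte lineage, 296 to 387 for 15 microglia markers and 148 to 194 for 15 vascular markers. Their part in the results below was not tested, and in such bulk samples fewer cells of a type and less RNA per cell cannot be told apart.

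Promoter peaks were found at most expressed genes and at few silent ones. A gene was called open with a promoter peak in all 3 lists and peakless with a peak in none, silent with no read in any of the 4 libraries and expressed if the normalized count averaged 50 or more. Of all 23132 genes, 14340 (62.0%) were open and 7970 (34.5%) peakless, while 4917 (21.3%) were silent and 10467 (45.2%) expressed. Among the silent genes 467 (9.50%) were open, and among the expressed genes 9972 (95.3%). The single lists gave 11.1, 11.5 and 11.7% of silent genes and 95.6, 95.9 and 95.7% of expressed genes with a peak, so the gap between the classes was far wider than the spread between lists.

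The share rose in steps between these ends. A peak in all 3 lists was present at 22.3% of the 1558 genes with reads but a mean under 1, at 38.3% of the 2115 genes from 1 to under 5, at 67.3% of the 4075 genes from 5 to under 50, at 94.2% of the 7440 genes from 50 to under 500, and at 97.9% of the 3027 genes of at least 500. Genes that had a peak in 1 or 2 lists only were few, 822 of all genes (3.55%), and most common between 1 and 5 normalized counts (7.94%). Their median height over the lists with a peak was 3.53, against 14.2 for open genes, so the lists differed mainly at low peaks.

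**Figure D1:**
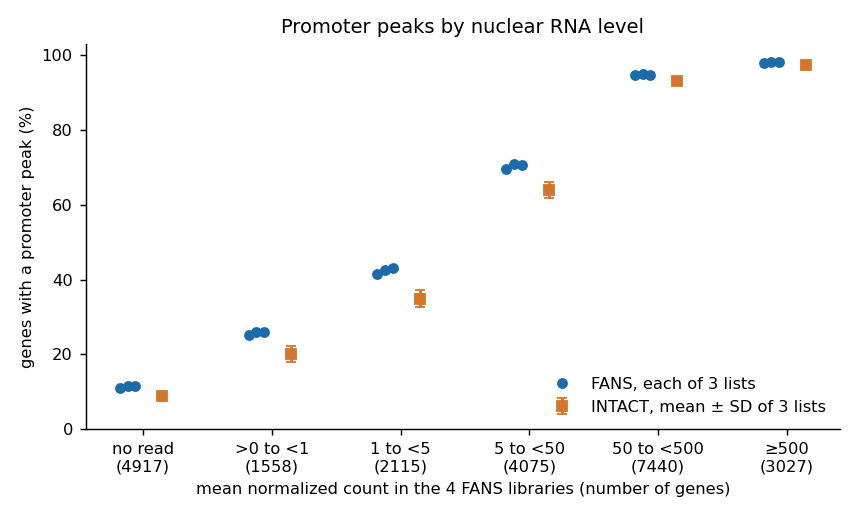
Percent of genes with a promoter peak (y axis, %) in 6 classes of mean normalized count in the FANS libraries (x axis, number of genes in brackets), with 1 blue point for each FANS list and an orange square with an SD bar for the mean of the 3 INTACT lists. The FANS points rise from 11.1 to 11.7% at genes with no read to 98.0 to 98.1% at genes of at least 500.

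INTACT lists had fewer promoter peaks in each class. A peak was present at 63.8% ± 0.332 of genes in the FANS lists and 60.3% ± 1.22 in the INTACT lists (SD, n = 3 lists each). By an exact permutation test, two-sided, this difference of 3.41 percentage points had p = 0.100, also after Benjamini-Hochberg adjustment over 3 comparisons, which is the smallest that 3 against 3 lists can give. For silent genes the shares were 11.4% ± 0.326 and 8.87% ± 1.11, and for expressed genes 95.8% ± 0.124 and 94.2% ± 0.617, each with an exact permutation p of 0.100. The lists of the 2 techniques did not overlap in any of these 3 shares. INTACT lists also held fewer peaks (99514 to 123895), and with 99514 peaks kept in every list the difference was 1.85 points over all genes in place of 3.41, 0.929 at silent genes in place of 2.55 and 1.47 at expressed genes in place of 1.54.

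The relation between height and RNA level across genes was stronger with peakless genes included than among open genes. Spearman's rho of mean height, with 0 for no peak, and mean normalized count was 0.69 over the 23132 genes, and 0.66 with the count per kb. The 12 pairs of a list and a library gave 0.678 to 0.688. These are descriptions across genes, which are not independent replicates and share the same libraries. Among the 14340 open genes rho was 0.23, and among the 12715 of them with a mean of at least 5 it was 0.12. The heights themselves were repeatable, with rho of 0.977 to 0.981 between lists over the open genes and a median coefficient of variation of 4.60%. Of the 1000 tallest promoters of each list, 682 were shared by all 3.

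Peak width followed the RNA level more closely than height did. Over the open genes, rho of mean width and mean normalized count was 0.40, and with the count per kb 0.35 against 0.24 for height. Open genes whose mean was 5 or more were ranked by count per kb and cut into 10 equal bins. Median height rose from 10.0 in the lowest bin to 15.9 in the eighth and was 14.4 in the highest. The median width went from 777 bp in the lowest bin to 1100 bp in the highest. With open genes ordered by height instead, the share with no read was 11.2% in the lowest of 10 bins and 0.907% in the highest. The median count per kb rose from 8.32 in the lowest bin to 71.7 in the ninth and was 61.9 in the highest. In the lowest bin of width 16.7% of open genes had no read, and in the highest 0.767%.

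**Figure D2:**
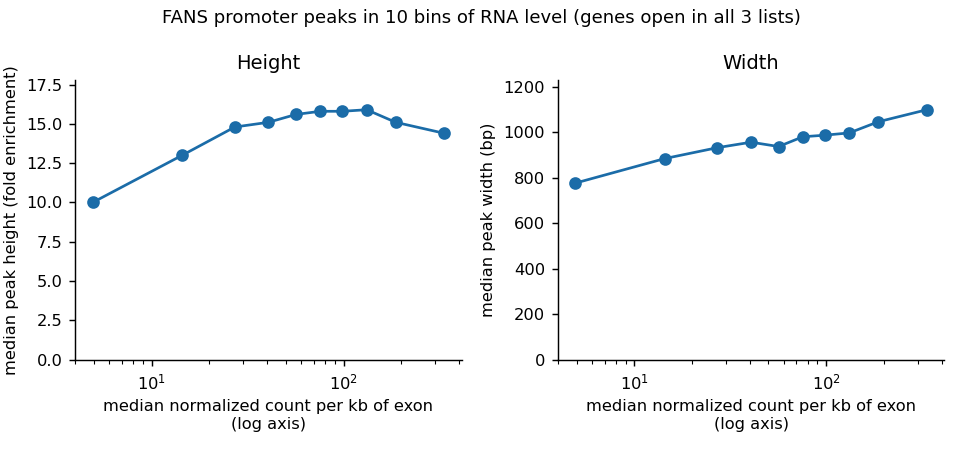
Median promoter peak height (left, fold enrichment) and median peak width (right, bp) against the median normalized count per kb of exon (log axis) in 10 equal bins of genes that were open in all 3 FANS lists and had a mean of at least 5. Height rises to 15.9 in the eighth bin and is 14.4 in the highest, whereas width is largest, 1100 bp, in the highest bin.

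The extremes of the 2 measures were held by different genes. By mean height the promoters of Gm20594, Cdc25c, N6amt1 and Ticrr were among the tallest. Gm20594 (chr6:79818031-79818364, mm10) had heights of 34.7, 33.9 and 34.1 and normalized counts of 0, 1.23, 0 and 0. Its peak was only 273 bp wide and began 49 bp from the start. Cdc25c, a phosphatase that activates the mitotic kinase, had heights of 29.6, 30.2 and 30.1 and the counts 0, 1.23, 0 and 0. Ticrr, which is needed for the start of DNA replication, had heights of 31.4, 28.7 and 29.0 with counts of 0, 3.68, 0 and 3.06. N6amt1, a methyltransferase, had heights of 31.0, 29.1 and 29.5 with a mean count of 97.3. So 3 of these 4 promoters belonged to genes at or near 0 reads.

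Highest in RNA per kb among protein-coding genes were Rsrp1, R3hdm1, Luc7l3, Trank1 and Snap25, at 4085, 3900, 2544, 2466 and 2458 normalized counts per kb. Their heights were ordinary. Rsrp1, linked to RNA splicing, had 15.6, 15.3 and 15.3, and Luc7l3, a splicing factor, had 14.1, 14.3 and 14.8. Trank1 and Snap25, a core protein of synaptic vesicle fusion, lay below the median of open genes (14.2), at 7.83, 8.77 and 7.92 and at 6.83, 7.32 and 7.98. All 5 had peaks wider than the median of open genes (933 bp), from 1087 bp in Luc7l3 to 1740 bp in Trank1.

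Genes of excitatory neurons and of the response to activity were open throughout, with low peaks. All 20 excitatory neuron markers and all 20 immediate early genes were open, against 62.0% of all genes. Their median heights were 7.18 and 10.8, against 14.2 for all open genes, while their median normalized counts per kb were 171 and 67.1, against 54.5 for all open genes and 16.4 for all genes. Arc (chr15:74669081-74672570), which marks recently active neurons and drives the tag, had counts of 1569, 1550, 1408 and 1365 and heights of 6.53, 6.47 and 6.19. Slc17a7, the vesicular glutamate transporter of cortical excitatory neurons, had a mean count of 1746 and heights of 3.52, 3.44 and 3.48. Gria2, an AMPA receptor subunit, had the highest level of the marker list, 1985 normalized counts per kb (mean count 22390), with heights of 10.9, 10.3 and 11.7. Camk2a and Grin2b had means of 4100 and 4563 and heights from 9.09 to 9.80 and from 6.18 to 7.91. Among the immediate early genes, Homer1, a scaffold of the postsynaptic density, had a mean of 3485 and heights of 13.4, 14.3 and 13.4, and the nuclear receptor Nr4a1 had 973 and heights of 12.3, 12.3 and 11.1. Fos had a mean of 116 and heights of 12.3, 13.2 and 14.9. The heights of these genes did not follow the order of their counts per kb.

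Mitotic genes showed the opposite pairing. A list of 32 genes of the cell cycle was written after the tallest open but silent promoters had been seen, so its counts describe the pattern and support nothing. All 32 were open, with a median height of 19.0 and a median normalized count per kb of 2.79. Of them 5 were silent and 4 expressed, while 21.3% of all genes were silent and 45.2% expressed. Cdk1, the kinase that drives entry into mitosis, had heights of 18.8, 18.5 and 19.1 and no read in any library. Ndc80, which ties kinetochores to microtubules, had 21.8, 21.2 and 20.5, and Cdca5, which protects sister chromatid cohesion, had 17.7, 19.9 and 19.7, both with no read. Cdca5 has a start of another gene, Zfpl1, within 2 kb, and a promoter peak in 1 of the 3 INTACT lists, whereas Cdk1 and Ndc80 have no such neighbour and a peak in all 3. Top2a, which untangles chromosomes, had a mean count of 2.62 and a mean height of 23.2. Per kb the highest members were Pcna, Ccnb2 and Ccna2, at 48.4, 23.1 and 20.6 normalized counts per kb, with mean heights of 16.2, 12.5 and 23.6. The peak of Ccna2 began 496 bp from its start, and 40.2% of the exonic windows of Pcna were unique. Aurkb was lowest in height, with 4.31, 4.32 and 4.37.

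**Figure D3:**
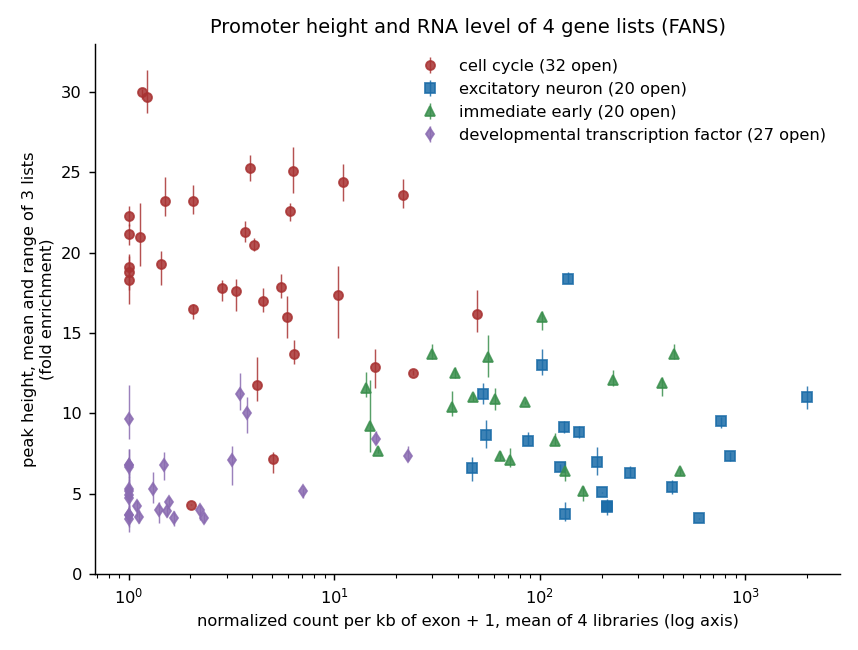
Promoter peak height (y axis, fold enrichment, mean of the 3 FANS lists with a bar from the lowest to the highest) against mean normalized count per kb of exon plus 1 (x axis, log axis) for the open members of 4 gene lists. Cell cycle genes (32 points, median height 19.0) sit at upper left, excitatory neuron markers (20 points, median 7.18) at lower right, with immediate early genes (20 points) and developmental transcription factors (27 points) between and below them.

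Of the 467 open but silent genes, 279 were protein-coding, of 19579 such genes in all, 114 were microRNAs, of 1093, and 61 were long non-coding RNAs, of 1993. Their peaks were lower and narrower than at expressed genes, with a median height of 7.56 against 15.3 and a median width of 531 against 994 bp. In 264 of them (56.5%) a peak covered the start itself, compared with 97.6% of the open and expressed genes. Of the 114 microRNAs, 76 lie inside another gene and 65 have another start within 2 kb. Neither share was counted over all 1093 microRNAs, so these counts do not show that either feature marks the open but silent ones. In the INTACT lists, 304 of the 467 (65.1%) had a promoter peak in all 3 lists and 71 (15.2%) in none. These shares were 97.5 and 0.582% for open and expressed genes, 0.188 and 98.5% for silent and peakless genes and 58.0 and 37.3% for all genes. The share of promoters rich in CpG, here those with at least 50% GC and an observed over expected CpG ratio of at least 0.6 in the 250 bases before the start, was 31.0% among open but silent, 3.48% among closed and silent, and 68.3% among open and expressed genes.

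What the table could count, and what lay beside each promoter, differed between these classes. The median exon length was 1094 bases in the 467 and 97 in the 188 of them that are not protein-coding. It was 972 in silent and peakless and 3510 in open and expressed genes. Only 424 of the 467 held an exonic window of 70 bases, the RNA read length. What part length had in the zeros was not tested. A start of another gene lay within 2 kb of 146 of the 467 (31.3%), and in 65 (13.9%) such a neighbour was itself expressed, against 6.42 and 0.282% of the 4250 genes that were silent and peakless, 25.9 and 16.0% of the open and expressed genes and 19.4 and 10.3% of all genes. Of the 279 protein-coding genes, 22 (7.89%) had under 50% of their exonic windows of 70 bases unique in the genome, against 12.3% of silent and peakless and 3.92% of all protein-coding genes. Likewise 22 (7.89%) shared at least 50% of their exonic bases with another gene, against 0.714 and 0.751%. Where only uniquely aligned and unambiguous reads are counted, reads on such exons can be left out, and the part this had in the zeros was not tested. The exons of Ndufs5 and Rpl26, a respiratory complex I subunit and a ribosomal protein, were 32.3 and 23.3% unique, and their counts were 0 in all 4 libraries beside mean heights of 21.7 and 18.4. Of 74 oxidative phosphorylation genes, however, 8 were under 50% unique and 1 was open but silent. Of 77 cytosolic ribosomal protein genes these numbers were 31 and 1. Cox7c and Rpl12, 19.2 and 5.26% unique, had mean counts of 133 and 125. Leaving out genes with another start nearby, under 90% unique windows or at least 10% shared bases, 186 of the 279 were left, of which 117 (62.9%) were open in all 3 INTACT lists, as were 62.9% of all and 97.6% of open and expressed protein-coding genes.

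Many of the silent genes were seen at low level in other libraries. In 14 FANS libraries of batches 2 and 3, a median of 11.7% (range 6.42 to 14.3) of the 467 open but silent genes had a read in any 1 library, against 4.29% (range 3.08 to 6.12) of the silent and peakless ones. The ranges did not overlap. Of the 467, 217 (46.5%) had no read in any of the 18 FANS libraries analysed, and 3048 of the 4250 (71.7%). No open but silent gene had a mean of at least 50 in both other batches. With silence taken as a mean under 1 in place of no read, 814 genes were open and silent. Of the 467 with no read, 301 had at least 90% unique windows and under 10% shared bases.

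The 8 tallest of the open but silent protein-coding genes without a neighbouring start were Vmn1r199, Ccnb1, Ndufs5, Akr1b3, Ndc80, Krt32, Sbp and Vmn1r233, all with 0 in the 4 libraries. Ccnb1, the cyclin partner of Cdk1, had heights of 22.4, 21.7 and 22.9, with 45.4% unique windows, and the aldose reductase gene Akr1b3 had 21.7, 21.2 and 21.8, with 22.4%. In both genes over 50% of the exonic windows were not unique, so their zeros cover only part of the exons. The pheromone receptor genes Vmn1r199 (chr13:22382538-22383641) and Vmn1r233 (chr17:20993727-20994686) were 100% unique. Vmn1r199 had heights of 23.5, 24.2 and 25.4, and Vmn1r233 had 19.4, 19.9 and 21.4. Their nearest peak edges were 717 and 451 bp from the start, so the peaks lay in the window but not on the start. Krt32, a hair keratin, had heights of 20.6, 21.2 and 21.4 at an edge 308 bp away. Ndc80 was 98.2% unique, its peak lay over the start, and it had at least 1 read in 4 of 7 libraries of batch 2 and 6 of 7 of batch 3.

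**Figure D4:**
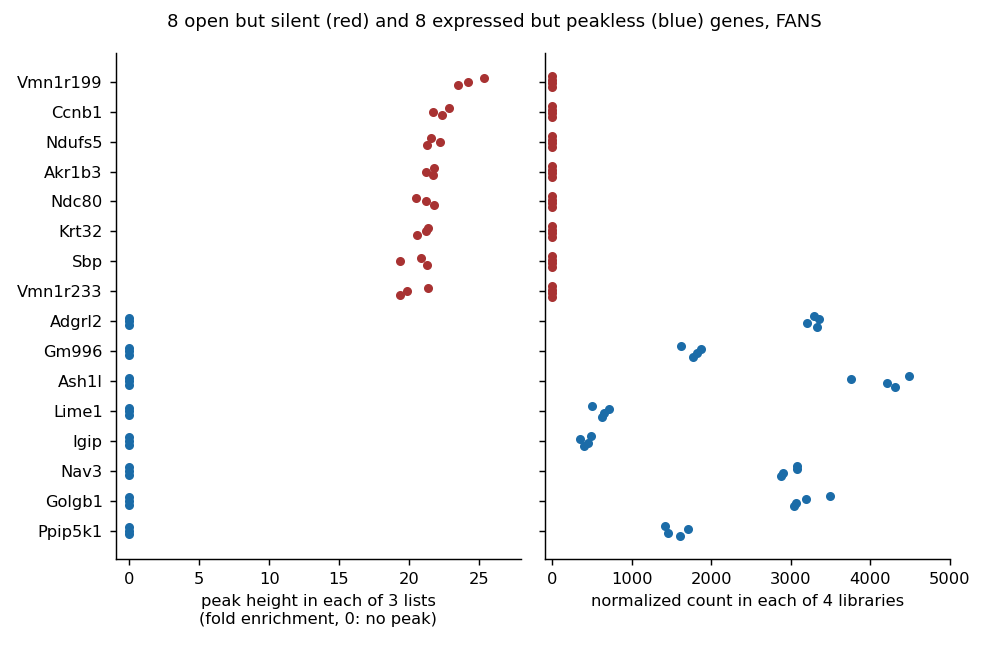
Promoter peak height in each of the 3 FANS lists (left, fold enrichment, 0 where there was no peak) and normalized count in each of the 4 FANS libraries (right) for the 8 tallest open but silent genes without another start within 2 kb (red) and the 8 expressed but peakless genes with the highest count per kb (blue), all protein-coding. The red genes have heights between 19.4 and 25.4 and counts of 0, and the blue genes have no peak and counts between 341 and 4490.

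The sequences before 4 starts show how such promoters differ in their letters. They are the 250 bases before the most upstream curated start, from RefSeq's GRCm38.p6 (mm10), 5′ to 3′ in the direction of transcription, all on the minus strand. Capitals mark matches on either strand to 6 motifs. The Sp1 box is GGGCGG, to which Sp1 and related factors bind, and the CCAAT box is named by its letters. The TATA box, which the general transcription machinery binds, is TATAAA here. ETS family factors bind CCGGAAG, and the core bound by the respiratory regulator NRF1 is GCGCATGCG. The core of the cell cycle genes homology region, which many mitotic promoters carry, is TTTGAA. Among all 23132 windows of this length, the Sp1 box is found in 41.3%, the CCAAT box in 35.2%, the TATA box in 12.1%, the ETS letters in 8.67%, the NRF1 core in 1.72% and the homology region core in 14.3%. A match is a description of the letters and not a bound site.
Cdk1, open and silent, chr10:69352913-69353162: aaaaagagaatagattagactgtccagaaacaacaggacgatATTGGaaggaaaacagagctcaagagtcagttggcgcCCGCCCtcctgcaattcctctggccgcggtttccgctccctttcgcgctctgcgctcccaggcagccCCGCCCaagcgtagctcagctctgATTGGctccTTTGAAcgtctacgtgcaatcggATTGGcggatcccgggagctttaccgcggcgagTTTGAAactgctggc
Ndc80, open and silent, chr17:71526858-71527107: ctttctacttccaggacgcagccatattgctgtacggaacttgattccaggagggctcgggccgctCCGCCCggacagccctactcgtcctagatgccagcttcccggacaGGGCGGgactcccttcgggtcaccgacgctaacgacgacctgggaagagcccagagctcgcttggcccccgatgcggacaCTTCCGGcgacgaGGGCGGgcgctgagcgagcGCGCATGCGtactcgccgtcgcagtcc
Krt32, open and silent, peak edge 308 bp from the start, chr11:100088270-100088519: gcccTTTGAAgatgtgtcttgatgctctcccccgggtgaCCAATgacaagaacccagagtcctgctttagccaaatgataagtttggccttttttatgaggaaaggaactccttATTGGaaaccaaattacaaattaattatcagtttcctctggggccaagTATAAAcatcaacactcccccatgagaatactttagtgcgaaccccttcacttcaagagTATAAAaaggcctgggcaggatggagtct
Arc, open and expressed, chr15:74672571-74672820: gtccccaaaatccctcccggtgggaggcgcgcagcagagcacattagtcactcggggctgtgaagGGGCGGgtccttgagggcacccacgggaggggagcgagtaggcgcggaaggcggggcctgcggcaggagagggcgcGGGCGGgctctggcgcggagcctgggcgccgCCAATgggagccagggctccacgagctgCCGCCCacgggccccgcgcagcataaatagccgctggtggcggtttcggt
Cdk1 holds 19 CpG, 3 CCAAT boxes, 2 Sp1 boxes and 2 homology region cores. Ndc80 holds 29 CpG, 3 Sp1 boxes and 1 match each to the ETS letters and the NRF1 core. Krt32 holds 2 CpG, 2 TATA boxes, 2 CCAAT boxes and 1 homology region core, and Arc holds 26 CpG, 3 Sp1 boxes and 1 CCAAT box. Cdk1, with no read, and Arc, with a mean count of 1473, thus share a CpG-rich window with Sp1 and CCAAT letters, while the peak of Cdk1 was the taller, 18.8 against 6.40 in mean height.

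Among protein-coding genes, GGGCGG stood before 38.0% of the open but silent starts, 8.06% of the silent and peakless, 62.5% of the open and expressed and 17.5% of the expressed but peakless starts. TATAAA ran the other way, at 15.4, 30.5, 5.19 and 19.8%. CCAAT was nearly even, at 39.8, 37.2, 35.5 and 31.3%. CCGGAAG stood at 4.66, 1.16, 14.5 and 2.78%.

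Developmental regulators were partly open, with low peaks. Of 91 transcription factors that pattern other tissues or embryonic regions, 27 (29.7%, against 62.0% of all genes) were open and 50 peakless, 50 were silent and none reached a mean of 50. Over all genes 34.5% were peakless and 21.3% silent. The 27, some of which had reads, had a median height of 5.16, against 14.2 for all open genes and 7.56 for open but silent genes. Of the 50 silent members 11 were open, against 467 of all 4917 silent genes (9.50%). Tbx3, En1, Tbx18 and Ptf1a led these, with mean heights of 9.67, 6.80, 6.78 and 6.67. In Hox genes, 1 of 39 was open, Hoxd1 at 6.09, 5.80 and 9.21, although 48.7% of the list was rich in CpG. Olfactory receptor genes had 23 open members of 1092 (2.11%) and vomeronasal receptor genes 4 of 325 (1.23%). Of 53 defensins 1 was open, and of 53 keratin-associated proteins 6, with Krtap16-1 at heights of 14.4, 14.1 and 13.5 and no read.

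Markers of other cells are read here against the 62.0% of all genes that were open. Of 18 inhibitory neuron markers 14 (77.8%) were open, with a median height of 5.14. Lamp5 had the highest level, 223 normalized counts per kb, and a mean height of 10.9. Reln, an extracellular matrix protein, had 51.4 per kb and 7.24, and Adarb2 was the tallest, at 17.2, with 16.3 per kb. Gad1, which makes GABA, had a mean count of 99.0 and heights of 3.39, 2.99 and 3.80, while the neuropeptide genes Sst and Vip had means of 22.2 and 17.7 and no promoter peak. Dlx2, a regulator of interneuron development, was open and silent at 4.06, 3.37 and 3.20. Of 16 astrocyte markers 12 were open, with Gfap and Aqp4 peakless at means of 13.9 and 11.3. Of 16 markers of the oligodendrocyte lineage 14 (87.5%) were open, and Opalin was expressed (47.6, 49.0, 61.3 and 102) without a peak. Of 15 microglia markers 3 were open, and the purinergic receptor gene P2ry12 was expressed (48.9, 63.8, 94.0 and 88.6) without a peak. P2ry12 lies within Med12l, so unspliced reads of one gene may be counted to the other where strand was not used. Of 15 vascular markers 6 (40.0%) were open, with Cldn5, a tight junction protein of brain endothelium, open and silent at 4.51, 4.12 and 4.40. Of 32 genes known from other tissues 5 (15.6%) were open. Dazl, a germ cell RNA-binding protein, was among them, with counts of 114, 102, 95.4 and 91.7 and heights of 13.2, 13.3 and 12.7 at a peak 329 bp from its start.

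Genes for ribosomes and respiration and zinc finger genes were mostly open, with median heights above the 14.2 of all open genes. Of 77 cytosolic ribosomal protein genes 74 were open, with a median height of 16.5, and 3 were peakless, Rpl10l, Rpl39l and Rpl3l, copies with mean counts of at most 2.25. Of 74 oxidative phosphorylation genes 70 were open, with a median height of 16.9, and the 4 peakless ones were Cox4i2, Cox6a2, Cox7b2 and Cox8c, isoforms with mean counts of at most 6.73. The 352 Zfp zinc finger genes had 326 open members and the third-highest median height of the lists, 17.2. Zfp619 reached 29.1, 29.1 and 27.8. Of 67 clustered histone genes 60 were open, with a median height of 11.2, below that of all open genes, 12 were silent and 29 had under 50% unique windows.

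**Figure D5:**
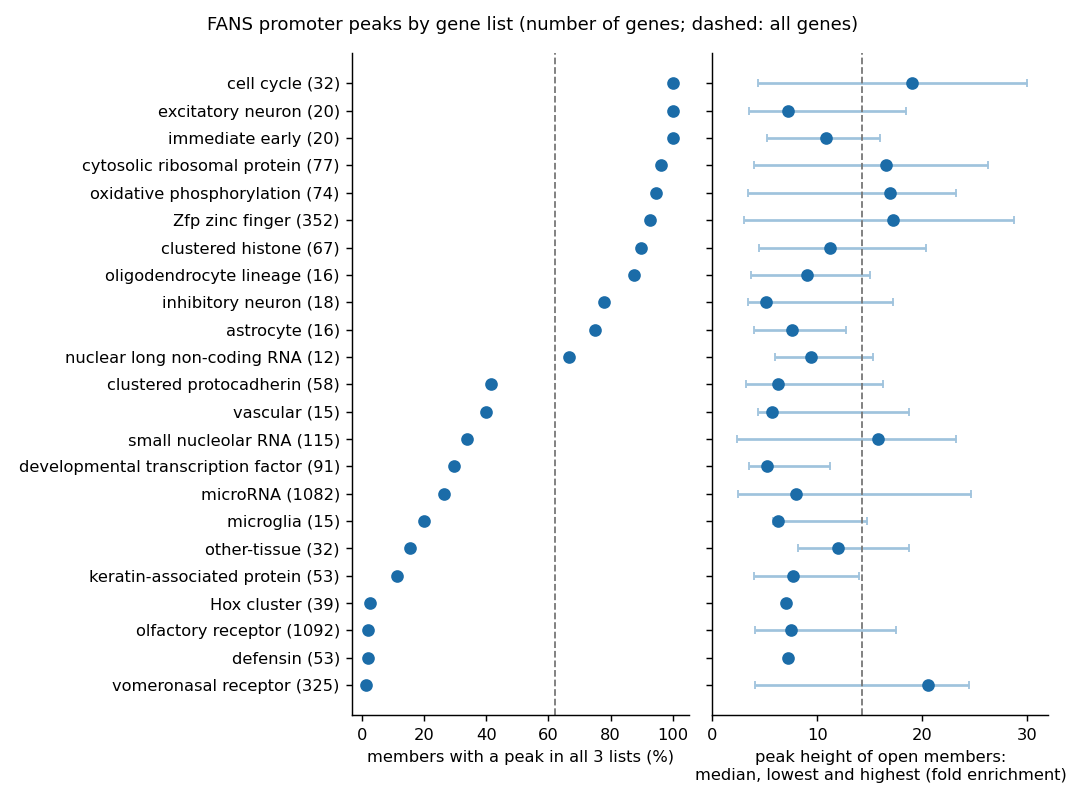
Percent of the members of each gene list with a promoter peak in all 3 FANS lists (left) and the median, lowest and highest mean height of those open members (right, fold enrichment), with the number of genes in brackets and dashed lines for all genes (62.0% and 14.2). Excitatory neuron, immediate early and cell cycle genes are all open, and their median heights are 7.18, 10.8 and 19.0.

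The 392 expressed but peakless genes comprised 252 protein-coding genes, 83 long non-coding RNAs, 30 small nucleolar RNAs, 12 microRNAs, 12 transcribed pseudogenes and 3 guide RNAs. Over all genes there were 115 small nucleolar RNAs, 316 transcribed pseudogenes and 9 guide RNAs. Most had a peak close by: the nearest edge lay over 1 and up to 2 kb from a start in 106 genes (27.0%), over 2 and up to 5 kb in 129 (32.9%), and over 50 kb in 4 (1.02%). For silent and peakless genes these shares were 5.58, 12.6 and 32.7%. In the INTACT lists 378 of the 392 (96.4%) had no promoter peak either, beside 98.5% of silent and peakless genes and 37.3% of all genes. Only 55 of the 392 had a mean of at least 500, out of 3027 such genes, while 1478 peakless genes had a mean of at least 5. In batches 2 and 3, 279 of the 392 (71.2%) again had a mean of at least 50, against 89.1% of the open and expressed genes.

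Among protein-coding genes the 8 with the highest count per kb were Adgrl2, Gm996, Ash1l, Lime1, Igip, Nav3, Golgb1 and Ppip5k1. Adgrl2, an adhesion receptor at synapses, had counts of 3335, 3210, 3359 and 3295, with the nearest peak 2223 bp away. Ash1l (chr3:88965812-89079375), a histone methyltransferase, had 4307, 4208, 3761 and 4490, with the nearest peak 14571 bp away. Nav3, a neuronal cytoskeleton protein, had 2880, 2906, 3080 and 3084, and Golgb1, a Golgi scaffold, 3043, 3062, 3190 and 3498. In each of the 8 genes the libraries differed by far less than the counts differed from 0.

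For many of them another annotation places a start elsewhere. With the starts of GENCODE M21 (mm10) added, 81 of the 252 protein-coding genes (32.1%) had a peak in all 3 lists, among them Adgrl2, Gm996, Ash1l, Nav3, Golgb1 and Ppip5k1 but not Lime1 or Igip. Added starts can only raise such a count. Of the silent and peakless protein-coding genes, 62 of 3361 (1.84%) had a peak in all 3 lists with them. The open share of all protein-coding genes went from 66.7 to 69.5%. The most upstream GENCODE start of Ash1l, chr3:88950622, lies 15190 bp before the curated start, under peaks of 1523, 1473 and 1499 bp with heights of 10.7, 11.3 and 11.2. The 250 bases before each start, both on the plus strand and with capitals as above, are these.
Ash1l, curated RefSeq start, no peak, chr3:88965562-88965811: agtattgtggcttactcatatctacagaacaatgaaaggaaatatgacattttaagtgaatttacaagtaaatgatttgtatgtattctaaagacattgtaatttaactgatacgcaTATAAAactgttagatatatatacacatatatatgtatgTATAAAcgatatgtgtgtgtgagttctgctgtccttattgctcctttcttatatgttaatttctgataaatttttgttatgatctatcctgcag
Ash1l, most upstream GENCODE start, under a peak, chr3:88950372-88950621: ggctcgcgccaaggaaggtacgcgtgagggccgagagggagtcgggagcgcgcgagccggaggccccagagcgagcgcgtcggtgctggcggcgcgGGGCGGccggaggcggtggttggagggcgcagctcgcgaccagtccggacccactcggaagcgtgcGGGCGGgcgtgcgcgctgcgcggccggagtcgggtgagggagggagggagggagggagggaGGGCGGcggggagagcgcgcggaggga
The first is 27.6% GC with 2 CpG and 2 TATAAA, and the second is 78.4% GC with 40 CpG and 3 GGGCGG.

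Of the non-coding genes that were expressed but peakless, many lie inside other genes. Small nucleolar RNAs are cut from the introns of host transcripts and guide modifications of other RNAs. Of the 30 expressed but peakless ones, 29 lie within another gene, all 29 of these hosts were expressed, and 24 hosts had their own promoter peak in all 3 lists. Snord15b, within the ribosomal protein gene Rps3, had counts of 18967, 18760, 23400 and 16362, and Snord17, within Snx5, had 5028, 6335, 7591 and 7994. Of the 12 microRNAs 8 (66.7%) lie within another gene, the same share as among the 114 open but silent microRNAs. The share within another gene was not counted over all small nucleolar RNAs or all microRNAs. Whether lying within another gene marks the expressed but peakless ones therefore cannot be read from these counts. Highest of the 12 was Mir3064, in Ddx5, with a mean of 482. Rian (chr12:109603945-109661716), a maternally expressed RNA of the imprinted Dlk1-Dio3 region, had 18749, 19131, 18348 and 16765 with the nearest peak 1327 bp away. Tmem181b-ps, a pseudogene with 45.0% unique windows, had 7348, 7269, 7213 and 6799. Snhg14, a long RNA of another imprinted region, had a mean of 2215 with the nearest peak 41879 bp away. Of 12 nuclear long non-coding RNAs listed 8 were open, and all 12 were expressed. Meg3, of the same region as Rian, was among the open ones, with a mean of 150658 and heights of 5.47, 6.10 and 6.27. Malat1, the highest of the 12 per kb, had a mean of 581487 and heights of 11.2, 9.23 and 10.5.

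Clustered protocadherins, which give neurons distinct surface identities, held the most such genes of the listed protein-coding families. Of 58 members 48 were expressed, against 45.2% of all genes, and 24 (41.4%) were open, against 62.0%. Of the 58, 16 were expressed but peakless, against 392 of all 23132 genes. The 16 had mean counts between 64.6 and 370. Over the 16, the median share of exonic bases held in common with another gene was 0%, and the members with such bases, Pcdha3, Pcdha8, Pcdhgb2 and Pcdhgb5, had 45.0 to 54.6%. Of the vomeronasal receptor genes, 4 neighbours were also expressed without a peak, Vmn2r84, Vmn2r85, Vmn2r86 and Vmn2r87, with mean counts of 160, 196, 114 and 245 and unique shares of 48.6 to 59.3%.

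With a window of 2 kb in place of 1 kb, 65.3% of genes were open, 635 were open but silent and 286 expressed but peakless. Nearest to the limit, the closest peak edge lay 999 bp from the start of Cd160, of Cplx3 and of Fbxl22, which each had a peak in 1 list, and 1003 bp from that of Gm3219 and 1006 bp from those of Nuggc and Bcas1os2, which had none.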

How the data were processed

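The data are ATAC-seq peak lists and RNA-seq tables of sfGFP+ nuclei isolated by FANS or INTACT. The authors aligned ATAC-seq reads with Bowtie2, removed duplicates with Picard and called peaks per library with MACS2. The deposited lists give each peak's fold enrichment (a ratio) and its −log10 p- and q-values, with no read depth, so the depth behind a peak is unknown. For RNA-seq the authors aligned reads with STAR to mm10, collapsed duplicates by molecular identifiers, counted with HTSeq and divided by DESeq size factors. Parameters and strand use of the counting were not given in the sources used here. The deposited RNA-seq values are thus counts on a normalized signal scale, and whole reads were recovered from their steps for 100% of values (tolerance 0.0102 normalized counts). Of the 8 FANS samples that the labels give for batch 2, 7 were analysed here. A further 13 columns of INTACT libraries were not used.

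Of 24421 genes, 23163 matched a curated RefSeq transcript by symbol and 1073 by an older symbol, 185 did not match and 1104 on chromosomes X and Y were left out. A peak counted when it overlapped 1000 bp on either side of a start. Uniqueness is the percent of 70-base exonic windows, every 10 bases, found once in the genome, and neighbours are starts within 2000 bp. Spearman's rho was computed across genes, FANS and INTACT lists were compared by exact permutation, and no count model was needed. Python 3.11.15, numpy 2.4.6, pandas 2.3.3, scipy 1.17.1 and matplotlib 3.10.9 were used, and each calculation was tested on simulated data.

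Named genes are Arc, the 8 tallest open but silent (without a neighbouring start) and the 8 highest expressed but peakless protein-coding genes, 4 such genes of other types, the 5 tallest promoters (1 is not reported here), the 5 highest counts per kb, leading, open but silent or expressed but peakless members of the gene lists and the genes next to the 1 kb limit. Other named members were chosen after their values were seen. The members and lists were chosen with earlier results of these data known.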

Additional observations from a re-analysis of the deposited data

Results flagged for a closer look

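Of 71 values over the 4 FANS libraries that were tested for a library far from the others, 3 passed Dixon's limit for 4 samples, and chance passes about 1 in 20. The normalized count of Zfp619 was 225, 227, 341 and 232, with a gap of 0.938 of the range at replicate 3. That of Pcna was 65.6, 67.4, 45.0 and 65.7, with a gap of 0.918, also at replicate 3. The number of genes with a read was 16591, 16766, 16595 and 16599, with a gap of 0.954 at replicate 2, the library with the most reads on genes.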

How the results depend on the processing

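Of 137 alternative values, 56 moved by more than the spread between replicates (over 1.5 times for counts) and none changed direction. FANS minus INTACT differences were judged by direction and test only, and with equal peak numbers were 1.85, 0.929 and 1.47 points in place of 3.41, 2.55 and 1.54. The share of open genes (62.0%) was 59.7% with a 500 bp window, 65.3% with 2 kb, 60.7% with −log10 q of at least 5, 59.9% with the summit in the window, 60.6% with the most upstream start only, 66.7% for protein-coding genes, 56.7% without neighbouring starts and 64.6% with GENCODE starts. In the same order the share among silent genes (9.50%) was 7.55, 12.9, 8.38 and 8.40%, then 7.39% for protein-coding genes, 7.19% without neighbouring starts and 11.1% with GENCODE starts. It was 12.6% with silence as a mean under 1 and 6.46% with silence in 18 libraries. The share among expressed genes (95.3%) was 94.3, 96.3, 94.7, 93.7, 93.4, 96.6, 94.2 and 96.5% in the order of the first 8. It was 87.4, 97.9 and 94.1% with means of at least 5, at least 500 and at least 50 per kb, 95.4% for countable genes and 96.2% with 50 or more in each of 3 batches. Open but silent genes (467) numbered 279 protein-coding, 814 with a mean under 1, 301 countable and 217 over 18 libraries. Expressed but peakless genes (392) numbered 252 protein-coding, 1478 from a mean of 5 and 55 from 500. The rank correlation of height and RNA level (0.690) was 0.696 and 0.678 with 500 bp and 2 kb windows, 0.676 with the most upstream start, 0.675 for protein-coding genes, 0.726 without neighbours, 0.659 per kb, 0.230 for open genes and 0.302 from a mean of 5. The cause of these shifts was not tested. Leaving out 1 list or library gave 62.0 to 62.8% open, 9.78 to 10.4% of silent and 95.2 to 95.5% of expressed genes, 481 to 546 and 381 to 420 genes, and a rank correlation of 0.687 to 0.690. FANS minus INTACT was 2.76 to 3.97, 1.99 to 3.09 and 1.21 to 1.81 points. The GENCODE, countable, 18-library and 3-batch settings, the cell cycle list and the TTTGAA motif were chosen after seeing the data.

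List numbers are shared by FANS and INTACT, but same-numbered lists did not deviate together (correlations of −0.006, −0.002 and −0.005 over 13294 genes). With a replicate block (lists paired by number) the differences stayed at 3.41, 2.55 and 1.54 points, each with an exact permutation p of 0.250, the smallest that 3 pairs allow.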
